A study of Mus musculus with 24 samples.

Results

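Calvarial osteoblast cultures of 2 genotypes, wild type and β-arrestin 2 (Arrb2) knockout, were compared at the end of a 28-day culture, with 3 arrays of each label on day 28, 6 of the 24 arrays of the series. Both groups came from the C57BL/6J background, from pups 7 to 10 days old. Cells freed from strips of skull bone with collagenase and trypsin were expanded, and at passage 2 a confluent layer received ascorbic acid (50 mg/L) and β-glycerophosphate (5 mM) from day 3 onward, so the day 28 cells of both labels had been in that medium. Each of the 3 replicates of a group was a separate cell preparation, per the series design. The labels do not say how the Arrb2 allele was disrupted or whether pups were pooled. The arrays were of the type Affymetrix Mouse Gene 2.0 ST, loaded with 100 ng RNA each, and expression is given as log2 RMA values, on which a difference of 1 is a 2-fold change. The question was which genes differ between the genotypes late in culture. A single transcript cluster was kept for each of 22180 genes, and the 14892 of them that reached the array median in at least 3 of the 24 arrays were tested.

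β-arrestin 2 is an adaptor that uncouples activated G protein-coupled receptors from their G proteins, carries them into endocytic vesicles and scaffolds kinases. In bone it is best known for limiting and redirecting signalling through the parathyroid hormone receptor. Osteoblasts and fat cells arise from a common stromal precursor, and cultures of primary osteoblasts commonly hold some cells that fill with lipid droplets. Adipogenesis is driven by the nuclear receptor Pparg together with Cebpa. These induce lipid droplet proteins such as Plin1 and Cidec, the fatty acid carrier Fabp4, enzymes that make and store triglyceride, and secreted hormones such as leptin. In a bulk culture, fewer cells of a type and less RNA per cell cannot be told apart.

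The array signal for Arrb2 did not fall in the arrays labelled knockout. On day 28 the wild-type arrays read 6.16, 6.36 and 6.81, and those labelled knockout 6.80, 7.11 and 6.64. The groups overlapped, and the difference of 0.40 (SE 0.18) was not called (limma adjusted p = 0.797). On days 2, 5 and 10 the difference was 1.21, 1.58 and 0.82, higher in the labelled knockout each time. On days 2 and 5 Arrb2 was the only tested gene with a limma adjusted p under 0.05. The position of the array's probes relative to the disrupted part of the gene is not known here, so the group is called labelled knockout throughout. Arrb1, the closest relative, differed by 0.29 (adjusted p = 0.980). Of the 10 genes that flank Arrb2 on its chromosome, 8 were tested, with differences from -0.17 (Zmynd15) to 0.30 (Cxcl16), and none was called.

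Replicates of a label differed widely on day 28 in genes outside the main comparison. Correlations over the tested genes ran from 0.971 to 0.987 between wild-type arrays and from 0.938 to 0.978 between labelled-knockout arrays, the lowest between labelled-knockout replicates 2 and 3. Wild-type replicate 3 and labelled-knockout replicate 1 correlated at 0.981, above all 3 pairs within the labelled knockout. Sex-linked genes differed between preparations of 1 label. Xist, the RNA that coats the inactive X chromosome, read 8.30, 4.26 and 9.74 in wild-type arrays against 9.0, 9.76 and 10.02 in labelled-knockout arrays. The Y-linked Eif2s3y read 7.37, 8.26 and 3.68 against 6.72, 6.64 and 5.70. Wild-type replicate 2 thus stood low for Xist and wild-type replicate 3 low for Eif2s3y. Xist in wild-type replicate 2 was low on the earlier days too (3.56, 4.09 and 4.32 on days 2, 5 and 10), while the model takes the 24 arrays as independent. The part of sex composition in the results was not tested.

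Genes such as Cox8b, Lep, Dgat2 and Klb, known from fat cells and lipid metabolism, were lower in the labelled knockout. At an adjusted p under 0.05, called from here on, 34 of the 14892 genes differed (0.228%). Of these, 33 were lower (0.222% of the tested genes) and 1, the myosin heavy chain Myh8, was higher (0.00672%). The change was at least 2-fold for 25 of the 34. Of the 33 lower genes, 19 stood in a list of fat-cell, lipid or peroxisome genes, but nearly all of these lists were chosen after the values had been seen, so that count is no test. The median difference of the 33 lower genes was -1.40, against 0.009 over all tested genes, but the former follows from how they were picked. All 34 showed no overlap between the 3 arrays of each label. Such separation was also found for 838 of all tested genes in the lower direction (5.63%) and 554 in the higher (3.72%). Before adjustment, 850 genes had a p under 0.05, 534 lower and 316 higher.

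The number of calls rests partly on single arrays. Leaving out each day 28 array in turn gave between 12 calls (without wild-type replicate 2, 0 of them higher) and 42 (without labelled-knockout replicate 2, 15 of them higher). The intermediate counts were 13 without labelled-knockout replicate 3 (2 higher), 15 without wild-type replicate 1 (0 higher), 22 without labelled-knockout replicate 1 (0 higher) and 28 without wild-type replicate 3 (6 higher). With array weights 28 of 96 calls were higher, so the balance of directions depends on how single arrays count. A fit with the preparation number of each label as a random block gave 27 calls, 26 of them among the 34, and lost Tmem182, Aldh6a1, Reep6, Wfdc21, Klb, Mfng, Tspan12 and AW112010. Tmem45b, Apoc1, Cox8b, Trarg1, Lrg1, A530016L24Rik, Ces1f and Thrsp, 8 of the 34, were called in all 6 fits leaving out 1 array. Oxtr, Aldh6a1, Klb and Tspan12 were called in none of those 6 fits. None of the 34 turned its direction under any of the 18 alternatives.

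**Figure D1:**
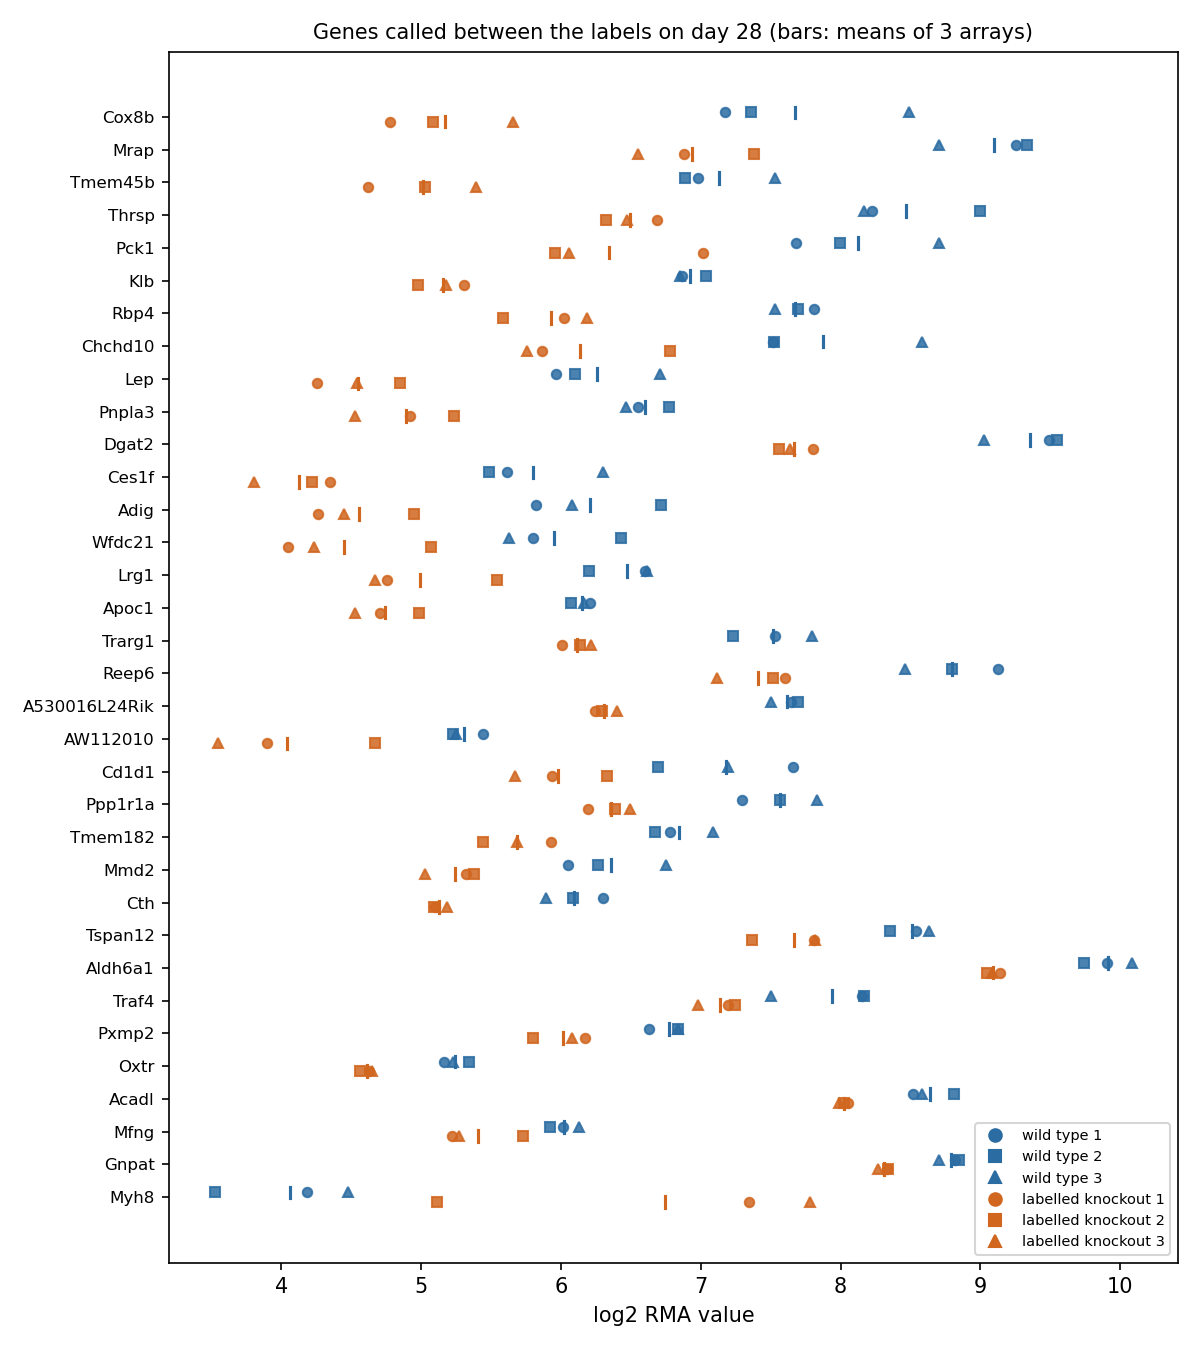
Log2 RMA values of the 34 called genes on the 6 arrays of day 28, with wild type in blue, labelled knockout in orange, a marker shape for each replicate number and a bar at each mean of 3. All 33 genes above the last row have every orange point left of every blue one, from Cox8b (-2.50) to Gnpat (-0.48), and Myh8 in the last row is reversed.

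The start regions of 5 of the called genes are shown because these genes carry the pattern and the RefSeq promoter table (build GRCm38.p6) holds them. That table had an entry for 20 of the 34 called genes. The first 4 are those with the smallest p among called genes in the table, and Pnpla3 was added after the motif search had shown its match. Each runs 5′ to 3′ on the gene's own strand over 300 bases around the start of transcription. Capitals mark matches, on either strand, to 4 kinds of element. One is TATAAA, bound by the general transcription machinery (the TATA box). Another is the box CCAAT, which reads ATTGG on the opposite strand. The core hexamer of nuclear receptors such as Pparg is AGGTCA. The cAMP response element is TGACGTCA in full, and its core is the first 5 letters. The regions are chr7:140900397-140900696 for Cox8b (minus strand), chr17:56121897-56122196 for Lrg1 (minus), chr7:97417501-97417800 for Thrsp (minus), chr5:142608703-142609002 for Mmd2 (minus) and chr15:84167566-84167865 for Pnpla3 (plus).
Cox8b: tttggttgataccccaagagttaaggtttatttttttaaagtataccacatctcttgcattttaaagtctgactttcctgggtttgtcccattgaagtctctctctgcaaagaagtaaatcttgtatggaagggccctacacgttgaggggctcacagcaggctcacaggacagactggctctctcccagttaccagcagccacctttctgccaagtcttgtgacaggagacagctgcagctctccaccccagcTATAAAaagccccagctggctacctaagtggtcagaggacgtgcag
Lrg1: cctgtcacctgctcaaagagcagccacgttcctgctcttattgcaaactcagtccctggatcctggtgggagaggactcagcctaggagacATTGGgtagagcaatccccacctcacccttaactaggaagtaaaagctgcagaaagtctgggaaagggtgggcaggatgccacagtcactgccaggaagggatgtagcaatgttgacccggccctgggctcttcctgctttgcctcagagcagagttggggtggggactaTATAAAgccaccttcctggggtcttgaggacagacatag
Thrsp: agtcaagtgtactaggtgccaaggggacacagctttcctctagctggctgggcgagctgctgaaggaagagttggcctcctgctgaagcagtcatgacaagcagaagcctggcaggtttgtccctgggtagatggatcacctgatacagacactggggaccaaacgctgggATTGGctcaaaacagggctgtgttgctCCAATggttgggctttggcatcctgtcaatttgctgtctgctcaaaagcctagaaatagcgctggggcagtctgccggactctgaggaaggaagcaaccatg
Mmd2: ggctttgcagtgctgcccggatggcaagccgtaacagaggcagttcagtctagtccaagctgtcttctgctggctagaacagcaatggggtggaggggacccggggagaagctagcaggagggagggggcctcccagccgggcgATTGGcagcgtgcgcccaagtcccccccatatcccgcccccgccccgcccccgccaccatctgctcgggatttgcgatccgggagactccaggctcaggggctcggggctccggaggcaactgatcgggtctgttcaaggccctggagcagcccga
Pnpla3: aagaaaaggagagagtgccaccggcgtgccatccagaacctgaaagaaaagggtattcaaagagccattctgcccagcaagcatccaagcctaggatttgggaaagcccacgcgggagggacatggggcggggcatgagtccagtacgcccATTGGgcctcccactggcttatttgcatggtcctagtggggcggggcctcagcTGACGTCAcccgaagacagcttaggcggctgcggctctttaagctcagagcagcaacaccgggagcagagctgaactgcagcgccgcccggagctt

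Cox8b and Lrg1 held a TATA box, Lrg1, Mmd2 and Pnpla3 a CCAAT box, and Thrsp 2 CCAAT boxes. The full cAMP response element was found for Pnpla3 alone among the 20 called genes with an entry, and it was present for 1.88% of the 27025 genes in the table, each taken with its first promoter. Its core, which lies within the full element, was found for 4 of the 20 (Pck1, Klb, Gnpat and Pnpla3) and for 21.0% of all genes. The nuclear receptor hexamer was found for 4 of the 20 (Tmem182, Adig, Oxtr and Chchd10) and for 16% of all genes. The direct repeat AGGTCANAGGTCA, the element bound by Pparg with its partner Rxra, was found for 0 of the 20 and 0.0444% of all genes. TATA boxes were found for 5 of the 20, against 14.2%, and CCAAT boxes for 9, against 37.9%. These are matches of letters in a short window and say nothing of binding.

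Dgat2, Thrsp, Pnpla3 and Pck1, which act in triglyceride or fatty acid synthesis, fell in the labelled knockout. Dgat2 joins the last fatty acid to diacylglycerol to make triglyceride. It read 9.49, 9.55 and 9.02 in wild-type arrays against 7.80, 7.56 and 7.64 in labelled-knockout arrays. The 2 sets lay more than 1 unit apart, and Dgat2 fell by 1.69 (SE 0.27, limma adjusted p = 0.00539). Thrsp (Spot 14), a nuclear and cytoplasmic protein that promotes lipogenesis, read 8.23, 9.0 and 8.17 against 6.69, 6.32 and 6.47, a difference of -1.97 (adjusted p = 0.00468). Every labelled-knockout array was below 7 and every wild-type array above 8. Pnpla3, a lipid droplet acyltransferase and lipase, read 6.55, 6.78 and 6.46 against 4.92, 5.24 and 4.52 (difference -1.71, adjusted p = 0.0145). Pck1, which in fat cells feeds glycerol synthesis, read 7.68, 8.0 and 8.70 against 7.01, 5.96 and 6.06 (difference -1.78, adjusted p = 0.0241). Labelled-knockout replicate 1 came nearest to the wild type for Pck1, whose average was 3.44-fold higher in the wild type. Pck1 lost its call in 4 of the 6 fits leaving out a day 28 array and also with array weights. Pnpla3 lost its call in 3 of those 6 fits, Dgat2 in 1 and Thrsp in 0.

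Around these enzymes, the other members of the pathway were mostly below the wild type without being called. In a list of 16 tested triglyceride synthesis genes, chosen after values had been seen, 3 were called lower (Dgat2, Pck1 and Pnpla3), 15 had a negative difference and the median was -0.61. Over all 14892 tested genes, 0.222% were called lower, 7147 had a negative difference and 7741 a positive one. Gpat3, which adds the first fatty acid to glycerol phosphate, differed by -0.99 (adjusted p = 0.0666), Agpat2, which adds the next, by -1.22 (0.113), and Gpd1, which supplies glycerol phosphate, by -1.49 (0.554). Lpin2 differed by 0.26 in the other direction. Among 13 tested fatty acid synthesis genes only Thrsp was called, all 13 differences were negative, and the median was -0.49. Acss2, which makes acetyl-CoA from acetate, differed by -1.23 (adjusted p = 0.0666), Scd1, the Δ9 desaturase, by -1.21 (0.184) and Fasn, the fatty acid synthase, by -0.74 (0.397).

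Lep, Rbp4, Apoc1 and Lrg1, which encode secreted products of fat cells or plasma carriers, fell as well. Lep, the satiety hormone leptin, read 5.96, 6.10 and 6.71 in wild-type arrays against 4.25, 4.85 and 4.54 in labelled-knockout arrays, a fall of 1.71 (SE 0.33, limma adjusted p = 0.0301). Rbp4, the plasma carrier of retinol, read 7.81, 7.69 and 7.53 against 6.02, 5.59 and 6.18 (difference -1.75, adjusted p = 0.0145). The wild-type arrays were close together for Rbp4, and all exceeded the labelled knockout by more than 1 unit. Apoc1, a small apolipoprotein of plasma lipoproteins, read 6.21, 6.07 and 6.16 against 4.71, 4.98 and 4.53 (difference -1.41, adjusted p = 0.000568). Lrg1, a secreted leucine-rich glycoprotein, read 6.60, 6.20 and 6.62 against 4.75, 5.55 and 4.67 (difference -1.48, adjusted p = 0.00148). Labelled-knockout replicate 2 was the highest of its group for Lrg1, Lep and Apoc1 and still lay below all wild-type arrays. Of the 6 fits leaving out a day 28 array, Lep lost its call in 5 and Rbp4 in 3. In the list of 16 tested adipokines and carriers, chosen after values had been seen, these 4 were called lower (0.222% of all tested genes were). Of the 16 differences 15 were negative, and the median was -1.36. Retn, the hormone resistin, had the largest difference of the list at -2.51 without being called (adjusted p = 0.0725), and Adipoq, adiponectin, differed by -1.49 (0.667).

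Genes for hormone receptors of fat cells and proteins that work with them formed a further group. Mrap, the accessory protein that brings the corticotropin receptor to the cell surface, read 9.26, 9.34 and 8.71 in wild-type arrays against 6.88, 7.38 and 6.55 in labelled-knockout arrays. It fell by 2.17 (SE 0.43, limma adjusted p = 0.0314), a 4.49-fold change, and every labelled-knockout array lay at least 1 unit below every wild-type array. Klb (β-klotho), the co-receptor for the fasting hormone FGF21, read 6.87, 7.04 and 6.85 against 5.30, 4.98 and 5.18 (difference -1.77, adjusted p = 0.0497; not called with the random block). Trarg1, a regulator of the trafficking of the insulin-responsive glucose transporter, read 7.53, 7.23 and 7.80 against 6.01, 6.14 and 6.21 (difference -1.40, adjusted p = 0.00148). Both labels were tight for Klb, and its p lay just under the threshold. The glucose transporter itself, Slc2a4, differed by -0.98 without being called (0.144). Oxtr, the G protein-coupled oxytocin receptor, read 5.16, 5.34 and 5.23 against 4.63, 4.56 and 4.65, a small difference of -0.63 (adjusted p = 0.0296) with tight groups. Oxtr and Klb each lost their call in all 6 fits leaving out a day 28 array, and Mrap lost its call in 4.

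The list of 20 tested fat-cell hormone receptors and partners, chosen after values had been seen, held those 4 calls, 17 negative differences and a median of -0.66. Of all tested genes 0.222% were called lower. Rasd1, a Ras-like G protein induced by glucocorticoids, differed by -1.42 (limma adjusted p = 0.0577), and Adipor2, an adiponectin receptor, by -0.68 (0.0539). Tshr, the thyrotropin receptor, differed by -1.36 (0.136). Lepr, Irs1 and Adipor1 were at 0.09, 0.03 and 0.15. In a separate list of 36 tested G protein-coupled receptors of bone cells, Oxtr was the only call, and the median was -0.06. For Pth1r, the parathyroid hormone receptor, the difference was 0.25 (0.992). A list of 21 cAMP-responsive and parathyroid hormone target genes had no call and a median of -0.07, and one of 23 arrestins, receptor kinases and RGS proteins had no call and a median of 0.16.

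Cox8b and Chchd10, mitochondrial genes high in brown fat, fell in the labelled knockout. Cox8b, a cytochrome oxidase subunit of heart, muscle and brown fat, read 7.18, 7.36 and 8.49 in wild-type arrays against 4.78, 5.08 and 5.65 in labelled-knockout arrays. It fell by 2.50 (SE 0.33, limma adjusted p = 0.00131), 5.68-fold, the largest fall among the called genes. Chchd10, a protein of the mitochondrial intermembrane space, read 7.52, 7.52 and 8.59 against 5.87, 6.78 and 5.76 (difference -1.74, adjusted p = 0.0145). Wild-type replicate 3 was the highest array for both genes. Chchd10 lost its call in 3 of the 6 fits leaving out a day 28 array. It was not called with the 6 day 28 arrays alone (limma adjusted p = 0.414), and neither was Cox8b (0.102). Of 10 tested brown fat genes, a list chosen after values had been seen, these 2 were called lower (0.222% of all tested genes were), and the median was -0.78. Ebf2, a transcription factor of brown precursors, differed by -1.62 (adjusted p = 0.124), Prdm16 by 0.13 (0.992) and Dio2, which activates thyroid hormone, by 0.81 (0.882). Ucp1 and Cidea were not among the tested genes. Over 67 tested subunits of oxidative phosphorylation, Cox8b was the only call, and the median was -0.15.

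Acadl, Aldh6a1, Gnpat and Pxmp2, of fatty acid oxidation, valine breakdown and the peroxisome, fell by small amounts with tight groups. Acadl, the long-chain acyl-CoA dehydrogenase, read 8.52, 8.81 and 8.59 against 8.05, 8.02 and 7.99 (difference -0.62, SE 0.11, limma adjusted p = 0.0148). Aldh6a1, which oxidises methylmalonate semialdehyde in valine breakdown, read 9.91, 9.74 and 10.08 against 9.14, 9.05 and 9.09 (difference -0.82, adjusted p = 0.0314), and its other transcript cluster differed by -0.57. Aldh6a1 was not called with the random block, nor in any of the 6 fits leaving out a day 28 array. The labelled-knockout arrays of each gene lay close together. Gnpat, the peroxisomal enzyme that starts ether lipid synthesis, read 8.82, 8.84 and 8.70 against 8.33, 8.34 and 8.27 (difference -0.48, adjusted p = 0.0301), the smallest called change. Pxmp2, a channel of the peroxisomal membrane, read 6.63, 6.84 and 6.84 against 6.17, 5.80 and 6.08 (difference -0.75, adjusted p = 0.0301). Gnpat and Pxmp2 each lost their call in 5 of those 6 fits, and Acadl in 2. In the lists that hold them, all chosen after values had been seen, Acadl was the only call among 19 fatty acid oxidation genes (median -0.32) and Aldh6a1 the only one among 21 genes of branched-chain breakdown (median -0.32, all 21 negative). Gnpat and Pxmp2 were the calls among 24 peroxisome genes (median -0.21). Of all tested genes 0.222% were called lower. The tricarboxylic acid cycle had none among 19 (median -0.32), and its largest difference was -0.94 for Pcx, pyruvate carboxylase (adjusted p = 0.132).

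Tmem45b, a transmembrane protein of poorly defined function, gave the smallest p of the comparison and stood in no list. Its wild-type arrays read 6.98, 6.89 and 7.53 and its labelled-knockout arrays 4.62, 5.03 and 5.39. The nearest arrays of the labels were more than 1 unit apart, and Tmem45b fell by 2.12 (SE 0.22, limma adjusted p = 0.000122), 4.34-fold. Ces1f, a carboxylesterase that hydrolyses lipid esters, read 5.61, 5.48 and 6.30 against 4.35, 4.22 and 3.80 (difference -1.67, adjusted p = 0.00189). All 3 labelled-knockout arrays lay below the medians of their arrays for Ces1f, so the size of that fall is uncertain. Outside the wild-type arrays of day 28, no group averaged above 4.13 for Ces1f, so its place among the tested genes rests on those wild-type arrays. Adig (adipogenin), a small membrane protein of fat cells, read 5.82, 6.71 and 6.08 against 4.26, 4.95 and 4.45 (difference -1.65, adjusted p = 0.0301). Adig lost its call in 4 of the 6 fits leaving out a day 28 array.

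The remaining lower genes covered several functions. Mmd2, a membrane protein of the progestin and adiponectin receptor family, differed by -1.11 (limma adjusted p = 0.00537), and Ppp1r1a, an inhibitor of protein phosphatase 1 activated by protein kinase A, by -1.21 (0.0228). Reep6, an endoplasmic reticulum shaping protein, differed by -1.39 (0.0334), and Wfdc21, a secreted whey acidic protein family member, by -1.50 (0.0497). Cd1d1, which presents lipids to natural killer T cells, differed by -1.21 (0.0301) and Cth, the cystathionine lyase that makes cysteine, by -0.97 (0.0301). Tmem182, a muscle and fat membrane protein, stood at -1.16 (0.0301). Smaller differences belonged to Tspan12, a tetraspanin partner of the Wnt receptor Fzd4 (-0.85, 0.0497), Traf4, a signalling adaptor (-0.80, 0.0249), and Mfng, a glycosyltransferase that modifies Notch (-0.61, 0.0497). The unnamed transcripts A530016L24Rik and AW112010 differed by -1.30 (0.00148) and -1.27 (0.0497). Reep6, Wfdc21, Tmem182, Tspan12, Mfng and AW112010 were not called with the random block. As with Ces1f, the place of AW112010 and Wfdc21 among the tested genes rests on the wild-type arrays of day 28. No other group averaged above 4.04 for AW112010 or 4.45 for Wfdc21. Neither gene was called when the filter at the array median was dropped. With each day 28 array left out in turn (6 fits), Cth, Reep6, Tmem182, Wfdc21, Mfng and AW112010 lost their call in 5 fits each. Cd1d1, Traf4 and Ppp1r1a lost it in 4 each and Mmd2 in 1. In all, 12 of the 34 called genes belonged to none of the lists.

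Myh8, the perinatal myosin heavy chain of skeletal muscle, was the single gene called higher. It read 4.18, 3.53 and 4.48 in wild-type arrays against 7.35, 5.11 and 7.78 in labelled-knockout arrays, a difference of 2.68 (SE 0.49, limma adjusted p = 0.0206). Labelled-knockout replicate 2 lay much closer to the wild type than the other two, and the wild-type arrays were all below their array medians. A second transcript cluster of Myh8 differed by 0.48. Myh1, an adult fast myosin heavy chain, read 4.52, 4.99 and 6.23 against 7.52, 6.68 and 7.5 (difference 1.99, adjusted p = 0.206) and was not called. Myosin heavy chain genes are close in sequence, so signal may be shared between their probes. The 23 tested skeletal muscle genes went both ways, with 10 positive differences, 13 negative and a median of -0.04. Besides Myh8 and Myh1, the slow troponin Tnni1 (0.29, adjusted p = 0.797) and the giant thin-filament protein Neb (0.13, 0.992) had all labelled-knockout arrays above the wild type, which makes 4 of 23 against 3.72% of all tested genes. The fast light chain Myl1 (-0.46, 0.945), Des, Tnnt3 and Ckm, also 4 of 23, were separated in the lower direction (5.63%). Myh8 was no longer called without wild-type replicate 1 or 2, or without labelled-knockout replicate 1 or 3.

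The adipocyte list as a whole was below the wild type on every labelled-knockout array, while few of its members were called. Mean log2 values over its 24 tested genes were 9.26, 9.23 and 9.44 in wild-type arrays against 8.12, 8.23 and 7.98 in labelled-knockout arrays. All 24 differences were negative, 21 of the 24 showed no overlap between labels (5.63% of all tested genes did so in that direction), and the median was -1.11. Of the 24, Dgat2, Pck1 and Lep were called (0.222% of all tested genes were called lower). With wild-type replicate 2 left out, none of the 24 was called, while the median was -1.30 and 22 of the 24 did not overlap. In that setting only 12 of all 14892 tested genes were called, all lower, and 7.79% did not overlap in that direction. The list was chosen with earlier results of these data known.

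**Figure D2:**
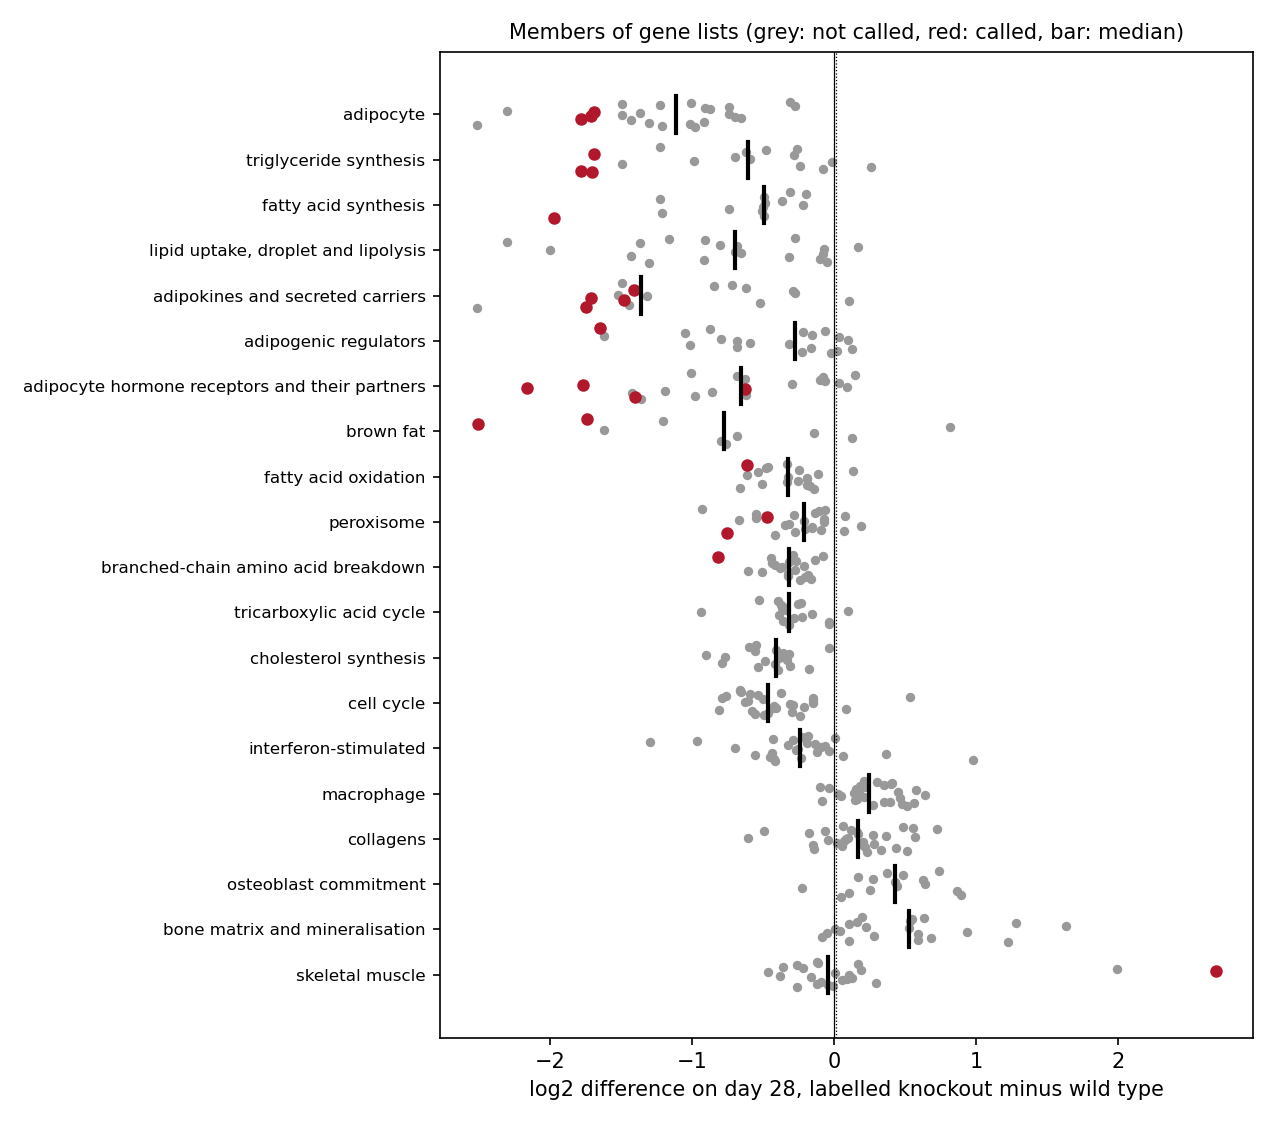
Day 28 differences (log2, labelled knockout minus wild type) of the tested members of 20 gene lists, with called genes in red, others in grey, a black bar at each list median and a dotted line at the median of all tested genes (0.009). The adipocyte list lies wholly left of 0 (median -1.11) and the lipid lists mostly so, while bone matrix (0.52) and osteoblast commitment (0.43) have medians to the right without a called gene.

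Several textbook fat-cell genes separated cleanly on day 28 yet missed the threshold of the fit that shares its spread over all 24 arrays. Fabp4, the fatty acid carrier, read 12.08, 12.27 and 12.10 in wild-type arrays against 10.72, 10.69 and 10.94 in labelled-knockout arrays. Its difference was -1.37 (SE 0.76, limma adjusted p = 0.928). The SD on day 28 was 0.11 and 0.14 in the 2 labels, but 1.81 and 1.80 on day 10. Cidec, a lipid droplet fusion protein, read 10.27, 10.41 and 10.33 against 8.36, 7.86 and 7.88 (difference -2.30, adjusted p = 0.127). Lgals12, a galectin of the droplet surface, read 8.56, 8.47 and 8.70 against 6.56, 6.88 and 6.28 (difference -2.0, adjusted p = 0.127). Retn read 9.78, 9.77 and 9.33 against 7.24, 7.10 and 7.01. Each of these had its 2 groups far apart compared with the spread on that day. Pparg, the master regulator, read 9.28, 8.91 and 9.24 against 8.12, 8.0 and 8.25 (difference -1.02, adjusted p = 0.695), and Cebpa differed by -0.88 (0.646).

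A fit of the 6 day 28 arrays alone called 22 genes, all lower, of which 10 were among the 34. In it Retn (limma adjusted p = 0.0133), Cidec (0.0143), Lgals12 (0.0268), Fabp4 (0.0333), Gpd1 (0.0333), Tshr (0.0333), Acss2 (0.0409), Scd1 (0.0430), Plin1 (0.0435) and the amine oxidase Aoc3 (0.0333) were called. It called 7 of the 24 adipocyte genes, against 22 of all 14892 tested genes. Cox8b and Lrg1, called with all 24 arrays, were not called in it. Among 20 tested adipogenic regulators, a list chosen after values had been seen, Adig was the only call with all 24 arrays, and the median was -0.27. With all arrays 0.222% of all tested genes were called lower. Of the 20 regulators, 10 had every labelled-knockout array below every wild-type array, against 5.63% of all tested genes. Cebpb, Cebpd and Ebf1, early factors of the programme, differed by -0.06, -0.22 and -0.16.

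The called genes had smaller differences on the earlier days, which in part follows from picking them on day 28. Among the 33 lower genes, the median was -0.08 on day 2, -0.06 on day 5 and -0.45 on day 10, and the number with a negative difference was 23, 21 and 31. The earlier days are other arrays, fitted in the same model. On day 2 and on day 5 a single gene was called over the whole table (0.00672% each). It was Arrb2 on both days, higher in the labelled knockout, and Arrb2 was not among the 34. On day 10 there were 5 calls (0.0336%), 3 of them shared with day 28. Those were Dgat2 (-1.85, limma adjusted p = 0.00746), A530016L24Rik (-1.16, 0.0109) and Myh8 (3.01, 0.0138). In the wild type the mean of 31 of the 33 lower genes was higher on day 28 than on day 2, and in the labelled knockout this held for 27. Both counts use the day 28 values on which the genes were picked, so they are no test. The share of all tested genes that rose was not counted.

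**Figure D3:**
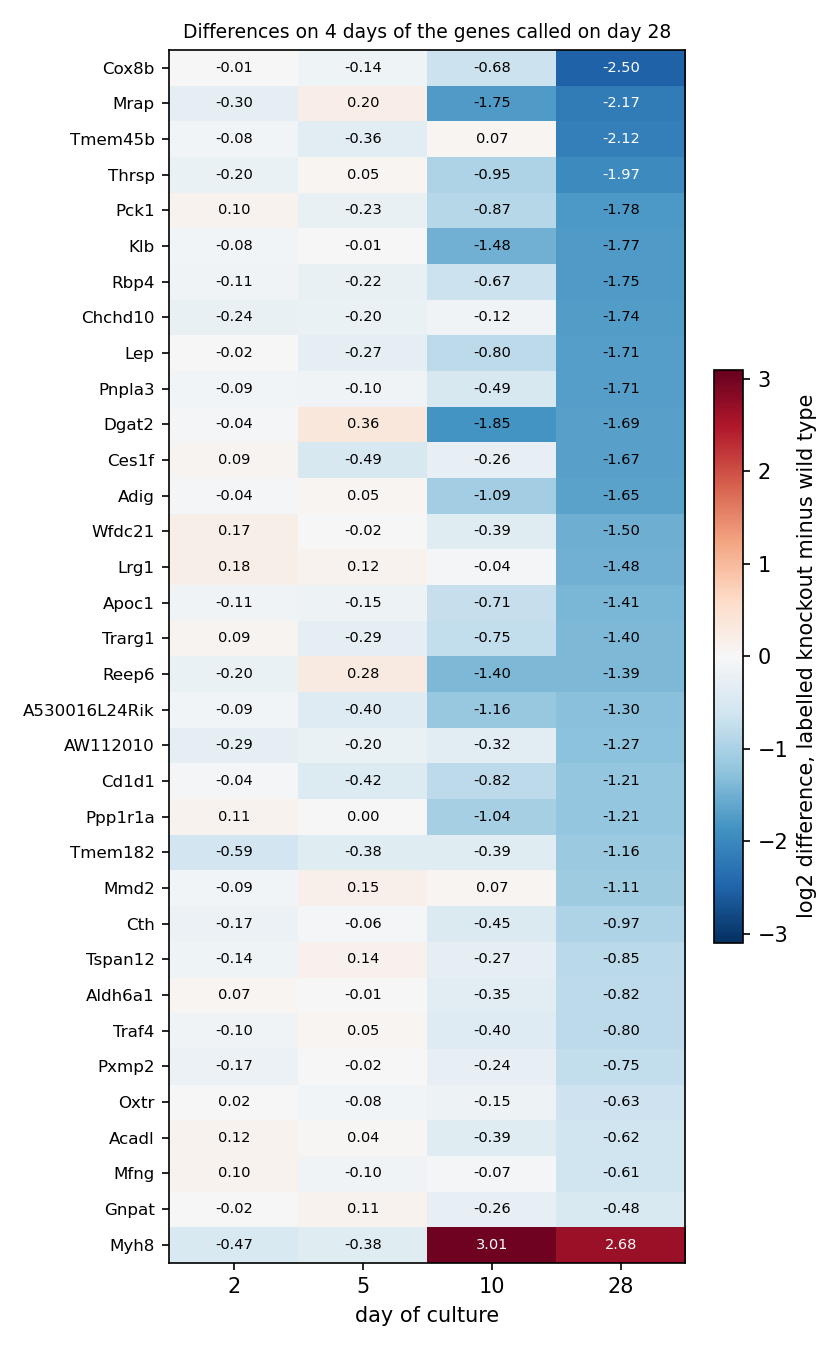
Log2 differences, labelled knockout minus wild type, of the 34 genes called on day 28, on each of the 4 days, with blue for lower and red for higher in the labelled knockout. Most entries for days 2 and 5 are near 0. Dgat2 (-1.85) and Myh8 (3.01) are already apart on day 10, and Tmem45b (0.07), Lrg1 (-0.04) and Mmd2 (0.07) are not. Mrap (-1.75) was not called on day 10 (limma adjusted p = 0.142), when wild-type replicate 3 (5.95) lay near the labelled knockout.

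The day 28 difference was itself tested against the earlier days. It differed from the mean of the differences on days 2, 5 and 10 for 4 genes (0.0269%), all more negative on day 28. For Tmem45b the change was -1.99 (limma adjusted p = 0.00310), for Lrg1 -1.57 (0.0145), for Cox8b -2.23 (0.0483) and for Mmd2 -1.16 (0.0483). Against day 2 alone, Tmem45b was the single call (0.00672%), at -2.04 (0.0428). Wild-type Tmem45b averaged 4.25, 4.55 and 4.27 on days 2, 5 and 10 and 7.13 on day 28, while the labelled knockout averaged 4.17, 4.19, 4.33 and 5.01. Its rise thus fell between days 10 and 28 in both labels and was smaller in the labelled knockout.

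Fabp4 and Dgat2 took another course. Fabp4 averaged 10.67 in the wild type on day 10 and 12.15 on day 28, and in the labelled knockout 5.58 and 10.78. Its difference was -5.10 on day 10 and -1.37 on day 28, so the labels lay closer at the later time. Over the adipocyte list the median difference was -1.23 on day 10 and -1.11 on day 28, after -0.002 on day 2. The wild-type arrays of day 10 were uneven. For Retn and Car3, wild-type replicate 3 (4.94 and 6.60) lay among the labelled-knockout arrays of that day. For Fabp4 and Pparg it read 8.60 and 8.30, above all of them. How far the day 10 median rests on the other wild-type arrays was not tested. Whether the difference in these genes changed between days 10 and 28 was not tested.

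**Figure D4:**
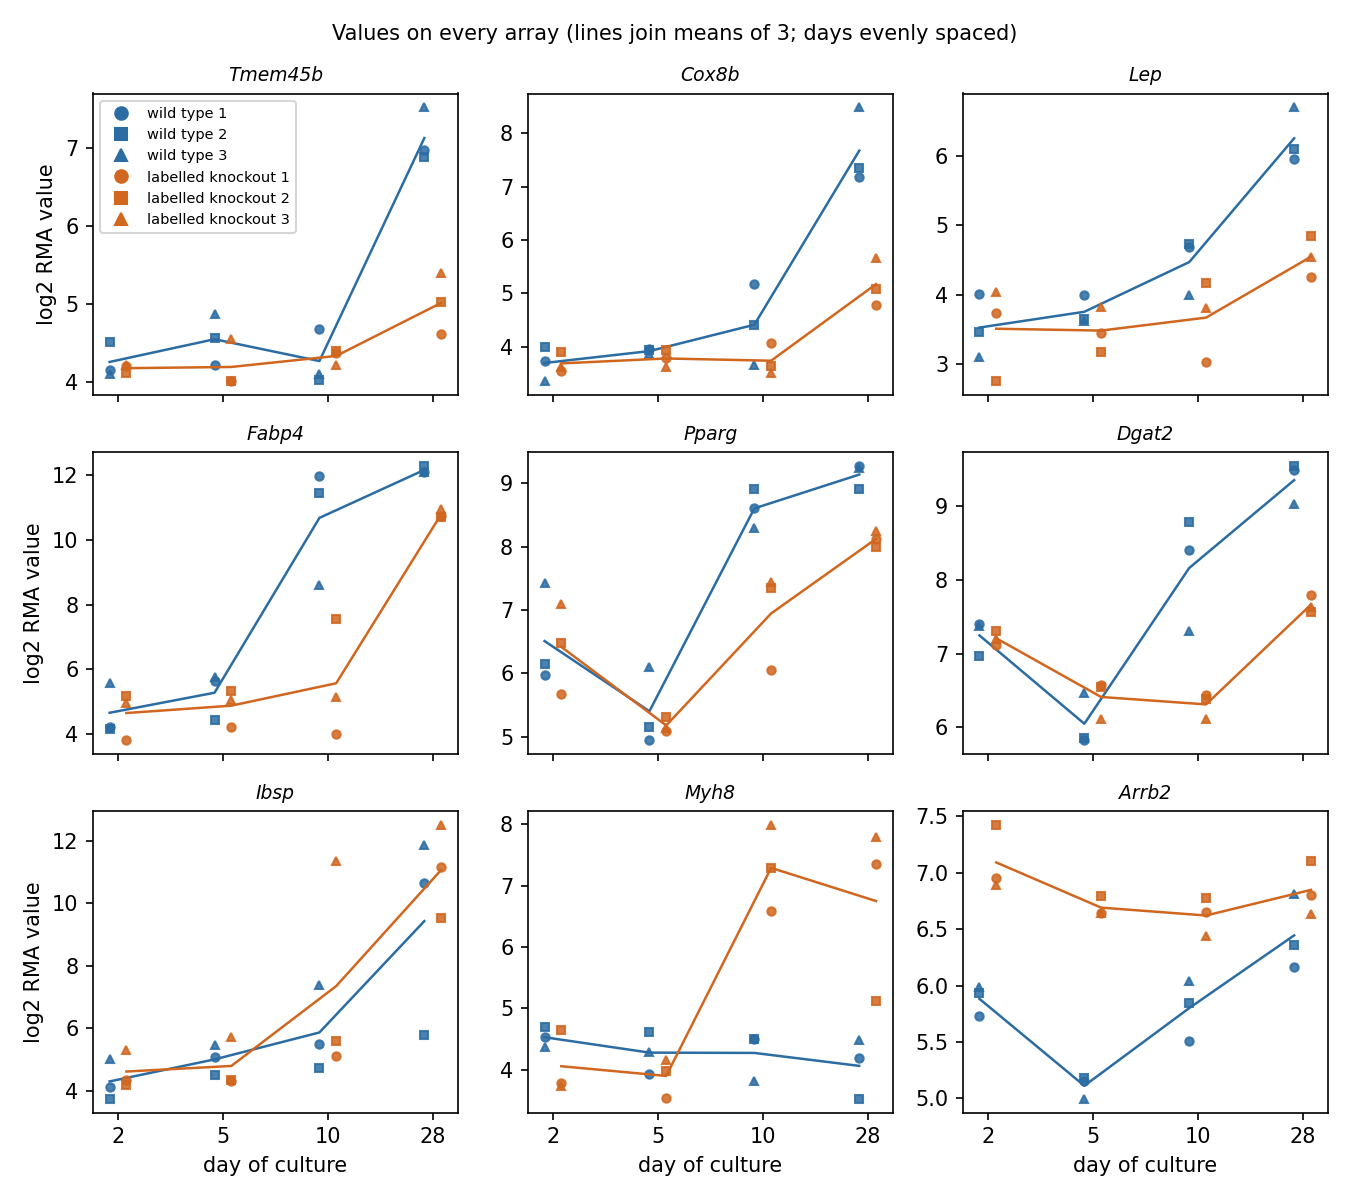
Log2 RMA values of 9 genes on every array of the 4 days, with wild type in blue, labelled knockout in orange, a marker for each replicate number and lines through the means of 3. Fabp4 is apart on day 10 and closer on day 28, Tmem45b and Cox8b part on day 28, Myh8 is high in the labelled knockout from day 10, and Ibsp in wild-type replicate 2 stands far below the other day 28 arrays; without that replicate its difference turns from 1.63 to -0.19.

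Bone genes leaned toward higher values in the labelled knockout, with no call and wide overlap. Among 21 tested genes of bone matrix and mineralisation, 19 differences were positive, none of the 21 was separated between labels in either direction (3.72% of all tested genes were in the higher direction), and the median was 0.52. The list mean was 8.23, 7.42 and 9.07 in wild-type arrays against 8.81, 7.92 and 9.44 in labelled-knockout arrays, with replicate 2 lowest and replicate 3 highest in each label. The median was 0.05 without wild-type replicate 2 and likewise without labelled-knockout replicate 3, and 0.89 without labelled-knockout replicate 2. Ibsp, the matrix protein bone sialoprotein, read 10.65, 5.77 and 11.85 against 11.15, 9.52 and 12.50. Its difference of 1.63 (SE 1.37, limma adjusted p = 0.981) became -0.19 without wild-type replicate 2. That 1 array, far below the rest of its group, thus set the direction.

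Other markers along the osteoblast path gave the same picture of overlap. Alpl, the alkaline phosphatase of early osteoblasts, read 7.75, 7.60 and 9.34 against 9.27, 7.17 and 10.46 (difference 0.74, limma adjusted p = 0.992). Sp7, the osteoblast transcription factor osterix, differed by 0.86 (0.978), Bglap, osteocalcin, by 0.63 (0.941), and Col1a1, the main chain of type I collagen, by 0.17 (0.992) at values from 13.06 to 13.73. The osteocyte genes Dmp1, Phex and Sost differed by 1.28 (0.937), 0.59 (0.992) and 0.59 (0.979). Col1a1 stood high on every array and Ibsp above 9 on 5 of the 6, so the defining transcripts of the labelled cell type were present. Fabp4 lay above 10 on all 6 arrays, so fat-cell transcripts were present in both labels. Of 15 osteoblast commitment genes 14 had a positive difference and none was called (median 0.43, with a range from 0.08 without labelled-knockout replicate 3 to 0.82 without labelled-knockout replicate 2). Spp1 and Runx2 were not analysed here, since no cluster names either of them alone.

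Macrophage transcripts varied more between preparations than between labels. The mean over 28 tested macrophage genes was 7.66, 7.96 and 8.61 in wild-type arrays against 8.30, 9.99 and 6.75 in labelled-knockout arrays, so labelled-knockout replicates 2 and 3 held the highest and lowest values of all 6. No macrophage gene was called, 25 of the 28 differences were positive, and the median was 0.24. It became -0.54 without labelled-knockout replicate 2 and 1.17 without labelled-knockout replicate 3. Csf1r, the receptor for the macrophage growth factor, read 7.47, 8.14 and 8.96 against 8.87, 10.29 and 7.14, and the adaptor Tyrobp 7.30, 7.82 and 8.16 against 7.90, 10.38 and 6.53. The adipocyte means of the labelled knockout had the same order over a narrower range, at 8.12, 8.23 and 7.98. The part of macrophage content in the called genes was not tested.

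**Figure D5:**
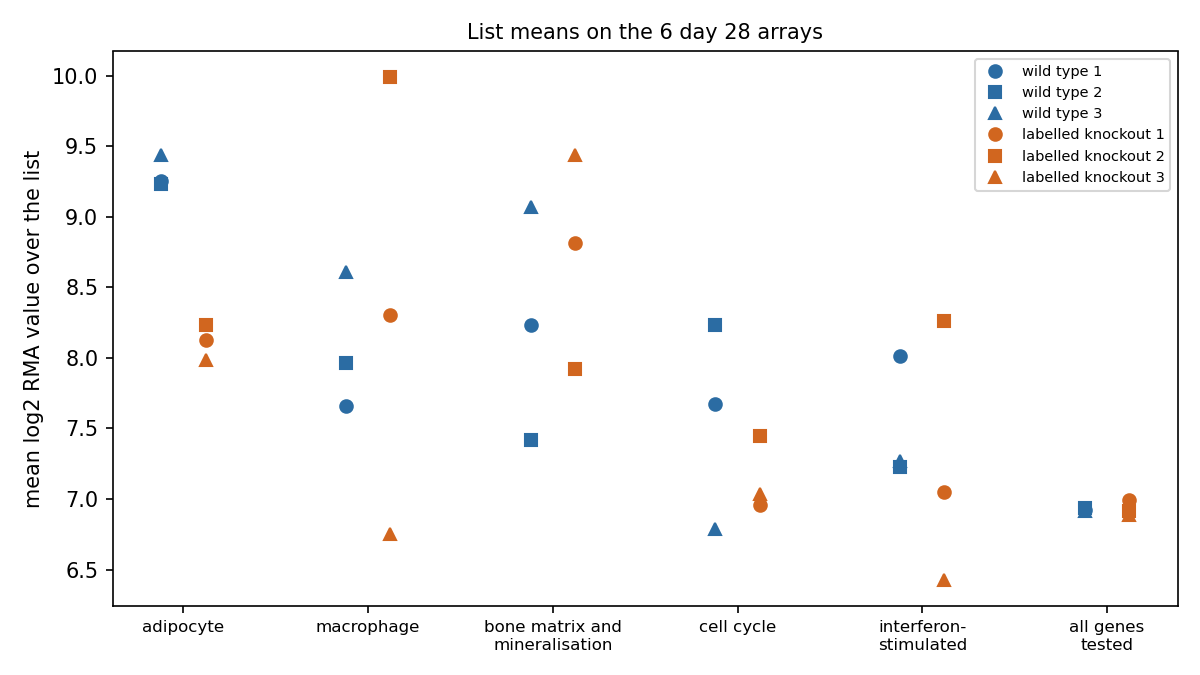
Mean log2 RMA value over the tested genes of 5 lists and over all tested genes on each day 28 array, with wild type in blue, labelled knockout in orange and a marker for each replicate number. The adipocyte means separate the labels (9.23 to 9.44 against 7.98 to 8.23), while the macrophage means run from 6.75 to 9.99 within the labelled knockout and the other lists overlap; the bone matrix median falls from 0.52 to 0.05 without wild-type replicate 2 or labelled-knockout replicate 3.

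Cholesterol synthesis and cell division leaned lower with no call. All 18 tested cholesterol synthesis genes had a negative difference, 6 did not overlap (5.63% of all tested genes did so in that direction), and the median was -0.41. With an array left out the number that did not overlap ranged from 6 to 16, the highest without wild-type replicate 3, when 15.8% of all tested genes did so. Insig1, the sterol-regulated protein that retains the pathway's activator, read 10.96, 10.72 and 10.69 against 9.88, 10.12 and 9.67 (difference -0.90, limma adjusted p = 0.797). Nsdhl and Lss, enzymes of the late pathway, differed by -0.79 and -0.77 (0.599 each). Of 29 cell cycle genes 27 were negative (median -0.47). Plk1, a mitotic kinase, read 8.10, 9.02 and 6.77 against 6.72, 7.81 and 6.92, so wild-type replicate 3 lay with the labelled knockout. Without wild-type replicate 2 the cell cycle median was -0.09, and without wild-type replicate 3 it was -0.94 with 24 of the 29 separated.

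Among inflammatory genes, some large differences were not called. Lcn2, the iron-scavenging lipocalin that fat cells also secrete, read 7.52, 7.04 and 7.25 against 5.53, 6.57 and 5.76 (difference -1.31, limma adjusted p = 0.0749). Cxcl9, an interferon-induced chemokine, differed by -1.33 (0.352) and the eosinophil chemokine Ccl11 by -1.29 (0.677). The 28 chemokines and cytokines had a median of -0.11, and 26 interferon-stimulated genes a median of -0.24, with no call in either. Of 35 lists of cell types and pathways, 5 held a called gene (adipocyte, bone-cell receptors, skeletal muscle, amino acid response with Cth, and Notch with Mfng) and 30 held none.

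The largest differences without a call were of 2 kinds. Retn, Cidec, Lgals12, Aldh1a7 (-1.94, limma adjusted p = 0.228), Ankef1 (-1.76, 0.147) and Myh1 did not overlap between labels. Kcnma1, Xist, Ibsp and Slc13a5 overlapped. Kcnma1, the large-conductance potassium channel, had the largest difference of all tested genes at 3.33 (SE 2.42, 0.978), from readings of 4.10, 9.24 and 3.63 against 8.98, 13.63 and 4.34. Replicate 2 was the highest array in both labels for Kcnma1. Slc13a5, a citrate transporter that also serves mineralising osteoblasts, read 7.27, 4.81 and 7.71 against 8.28, 6.96 and 9.50 (difference 1.65, 0.842), again lowest in replicate 2 of each label.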

How the data were processed

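Expression was analysed in the 3 wild-type and 3 labelled-knockout arrays of day 28, within a series of 24 arrays (2 genotypes, 4 days, 3 preparations each). The authors deposited log2 values per transcript cluster, for which the submitters' processing notes name RMA and Affymetrix Expression Console, and these were used as deposited. Versions and the annotation build were not stated. RMA gives all arrays a common distribution, so a shift shared by most genes would not be seen. Median values of the day 28 arrays lay between 4.55 and 4.64. The table held no identical columns (0 pairs), and arrays have no read depth, so their number limits the precision.

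The platform annotation gave a gene for 25335 of 41345 clusters, 23521 with exactly 1 symbol and 1814 with several, while 16010 had none listed. Only single-symbol clusters were named, and 23328 of them matched a gene identifier of RefSeq assembly GRCm38.p6, which was used for symbols, gene order and promoters. Where a gene had several clusters (1082 genes), the one with the highest mean over the 24 arrays was kept. A model with a mean for each of the 8 groups was fitted by limma (version 3.58.1, R version 4.3.3, functions lmFit and eBayes), which left 16 residual degrees of freedom. Tests were two-sided, with Benjamini-Hochberg adjustment over the 14892 tested genes, and adjusted p-values come from this limma model unless a sentence names another fit. The steps were tested on simulated data.

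The comparison, its members and 35 gene lists were chosen with earlier results of these data known, and 12 fat and metabolism lists were added after the values here had been seen. Text names every called gene, the 10 largest differences without a call, up to 4 members of a list with the largest differences, the neighbours of Arrb2 and a set of bone and sex-linked genes. Other list members (Adipoq, Adipor1, Adipor2, Agpat2, Aoc3, Cebpa, Cebpb, Cebpd, Ckm, Des, Dio2, Ebf1, Gpat3, Irs1, Lepr, Lpin2, Neb, Prdm16, Slc2a4, Tnni1, Tnnt3, Tshr) were named after their values were seen. Alternatives covered filters, scaling, weights, blocks, the arrays fitted, all clusters and leaving out each array. Leaving out wild-type replicate 2 on all 4 days was chosen after seeing the data.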

Additional observations from a re-analysis of the deposited data

Results flagged for a closer look

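The difference between labels on day 28 departed from the earlier differences for the genes below, by a limma test of the departure itself, which was the reason to list them. Tmem45b changed by -1.99 relative to the mean of days 2, 5 and 10 (adjusted p = 0.00310) and by -2.04 relative to day 2 (0.0428). Lrg1 changed by -1.57 (0.0145), Cox8b by -2.23 (0.0483) and Mmd2 by -1.16 (0.0483) relative to the mean of the earlier days. In all 4 genes the wild-type mean was highest on day 28, which in part follows from how they were picked.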

How the results depend on the processing

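The 34 calls on day 28 became 22 with the 6 day 28 arrays alone, 96 (28 higher, 68 lower) with array weights, 10 without wild-type replicate 2 on all 4 days, and 12 to 42 with each day 28 array left out in turn. Where a fit left 2 arrays in a group, limma pooled the spread over all groups. Same-numbered arrays of the 2 labels had deviations from their group means that correlated at -0.009, 0.245 and 0.260. Differently numbered arrays of the 2 labels correlated at -0.259 to 0.054. The labels state no block, so the main fit had none, and whether same-numbered arrays share an effect was not tested. With the replicate block the count was 39, and genes with an unadjusted limma p under 0.05 went from 850 to 1088. The count was 3 with the replicate block on the 6 arrays alone, which leaves 2 residual degrees of freedom. The random block of preparation gave 27 and lost 8 of the 34, and other filters and scalings gave 30 to 37. The 4 departures from the mean of the earlier days became 2 with arrays centred on their medians, 2 with all clusters, 1 without wild-type replicate 2 on all days, and 1 to 5 with an array left out. The single departure from day 2 became 0 without a filter, after a further quantile normalization, after centring, with all clusters and without wild-type replicate 2 on all days, 4 with array weights or the random block, and 0 to 3 with an array left out (limma; where it was 0, 321 to 726 genes had an unadjusted p under 0.05). Ibsp turned to -0.19 without wild-type replicate 2, on day 28 or on all days, and ranged up to 2.85 with another array left out. None of the 34 called genes kept its call in all 18 alternatives, and 0 of them turned. The causes of these shifts were not tested. Signal near background limits Ces1f and Myh8. The labelled-knockout means of AW112010 (4.04), Wfdc21 (4.45), Lep (4.55), Adig (4.55) and Oxtr (4.61) also lay near or below the array medians.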
